A study of Sus scrofa with 39 samples.

Results

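The genes described here are the interleukins, the colony-stimulating factors and their receptors in whole blood of preterm piglets. They were chosen by name: every gene whose Ensembl pig symbol begins with IL and a digit, plus CSF1, CSF1R, CSF2RB, CSF3R, IFNGR1, IFNGR2, IFNAR1 and IFNAR2. That gave 71 of 25880 genes, of which 29 encode ligands. CSF2RA, which the same rule names, was matched to no gene symbol and was not analysed here. The symbols IL1B, IL1RN, IL3RA, IL10RB and IL15RA were not among the 71 either, so those genes were not analysed.

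Whole-blood RNA came from 39 formula-fed preterm piglets, 1 library each. Of these, 19 were controls (CON) without necrotizing enterocolitis (NEC), an inflammatory disease that destroys the gut wall of preterm newborns, 11 had a mild form of it and 9 a severe form. NEC was diagnosed at necropsy on day 5, and the labels used here do not state when blood was drawn. The labelled batches divided them: the controls as 7, 5 and 7, the mild piglets as 4, 0 and 7, and the severe piglets as 3, 4 and 2 in batches 1, 2 and 3. All groups were fed formula, 19 piglets were labelled female and 20 male, and no genotype or drug treatment is given for any group.

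Interleukins and colony-stimulating factors are secreted proteins through which blood and tissue cells instruct one another to divide, migrate or become activated. Most of their receptors are pairs of chains that signal through JAK kinases and STAT transcription factors, whereas IL-1 family receptors signal through MyD88 and IRAK proteins to NF-kappaB. In blood the receptors are carried mainly by leukocytes, and many of the ligands are made briefly, or in tissues rather than in circulating cells.

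Each library had between 12.82 and 28.96 M (mega) counts on genes, with a median of 18.95 M. The beta-globin gene HBB alone took 23.4 to 67.8% of them, so the counts on non-globin genes were 1.48 to 12.47 M, and the cytokine and receptor genes together held from 1756 counts (mild replicate 1) to 72823 counts (CON replicate 16). Mild replicate 1 had the lowest level of 14 of the 36 genes that could be tested. Severe replicate 2 was labelled male but had 1 count on the Y-linked genes KDM5D and EIF1AY together, against 14 to 357 in the other male libraries and 0 to 5 in the female ones, so its sex label or identity is in doubt. It held the highest severe value of CSF2RB, CSF3R, IFNAR1, IFNGR2, IL22RA2 and IL4R among others, and it was 1 of the 3 severe piglets of batch 1. The differences of CSF1, CSF1R, CSF2RB, CSF3R, the interferon receptors, IL22RA2, IL1RAP, IL1A and IL4R are also given without it. So are the medians over the genes, and both were chosen after seeing the data. The severe minus mild differences within batch 1 are not given without it.

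Levels are given as CPM, counts per 1 M counts after TMM scaling, an adjustment of library size for composition. They compare piglets for 1 gene and not genes with each other, because transcript lengths were not used. Differences are log2 fold changes ± standard error from edgeR's quasi-likelihood test with severity, batch and sex as terms, and a gene was called at a Benjamini-Hochberg adjusted p (FDR) under 0.05 over all 10731 genes that passed the low-count filter. That filter kept 36 of the 71 cytokine and receptor genes: 30 receptor genes and only 6 of the 29 ligand genes (CSF1, IL1A, IL10, IL15, IL16 and IL18). In whole blood, fewer cells of a type and less RNA per cell cannot be told apart.

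Severe piglets were compared with controls to ask which cytokine genes accompany advanced disease. The tested receptors of the colony factors and of the interferons all read above controls in severe piglets, and 2 of the 36 tested genes passed the test: IL22RA2, which encodes a secreted decoy receptor that binds IL-22, and CSF1R, the receptor for the monocyte growth factors CSF1 and IL-34. Both rose. Over all tested genes 2.09% were called, 1.07% as higher and 1.02% as lower, so 2 calls among 36 (5.56%) are a small count set against a low background. At an unadjusted p under 0.05 there were 12 of the 36, against 18.6% of all genes. Other tests called more: DESeq2 called 5 of the 36 against 5.29% of all genes, limma voom 13 against 15.9%, and edgeR with DESeq2's size factors 2 against 2.14%. The fitted difference was above 0 for 24 of the 36 genes, with a median log2 difference of 0.29, or 23 with a median of 0.14 without severe replicate 2. Over all tested genes 44.7% lay above 0 and the median was -0.045.

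**Figure D1:**
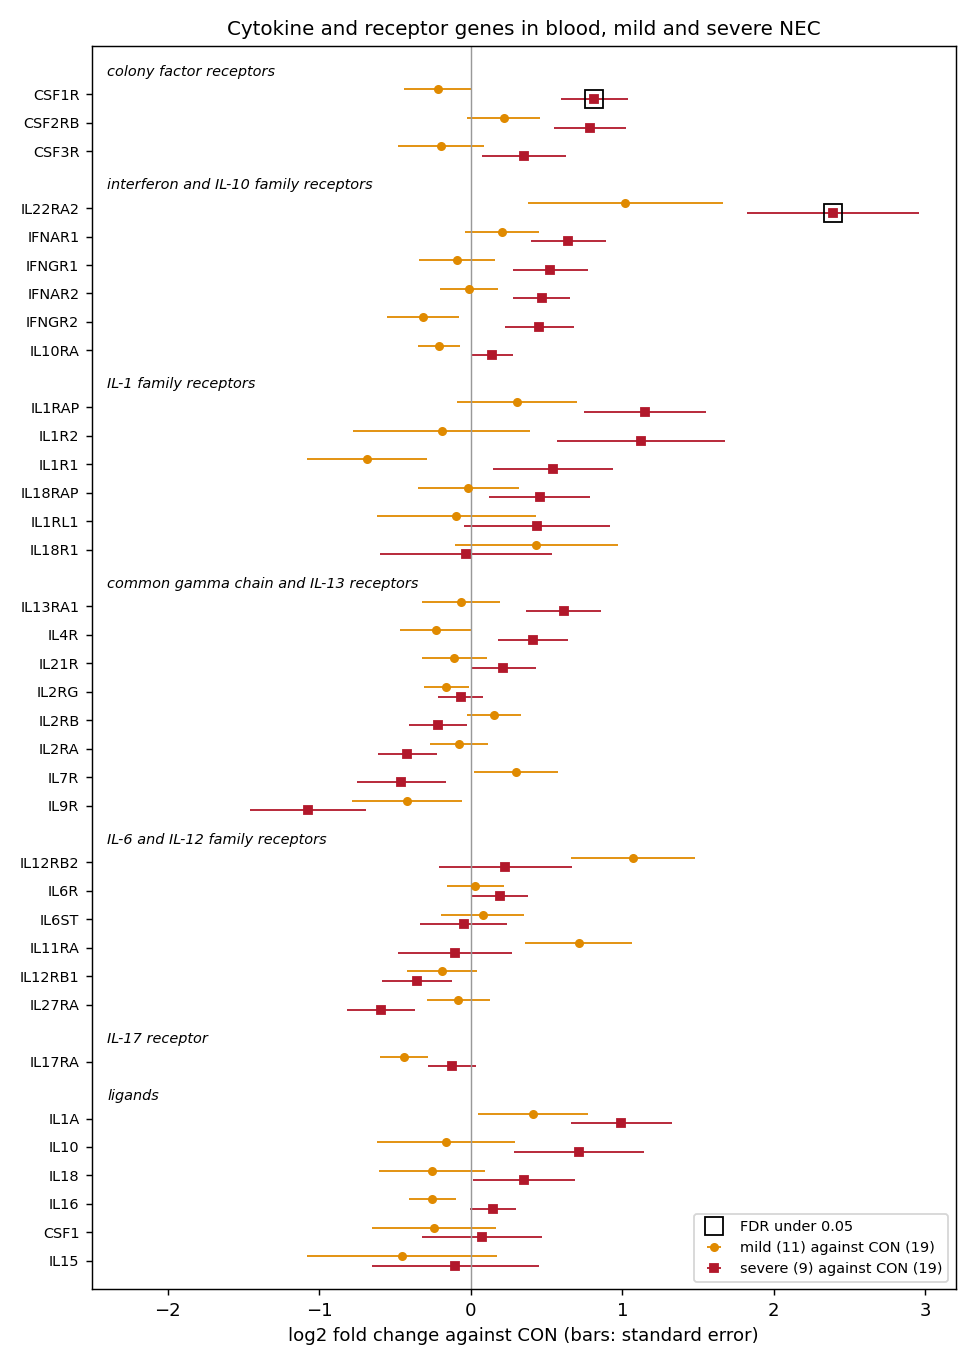
Fitted log2 fold changes of the 36 tested cytokine and receptor genes against controls, with the severe and the mild piglets drawn separately and both set against the same 19 controls; bars are standard errors. IL22RA2 and CSF1R, at 2.39 and 0.82 in the severe piglets, are the genes called at an FDR under 0.05.

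The 3 tested colony factor receptors all read above controls in the severe piglets. CSF1R (ENSSSCG00000014441, chromosome 2, bases 151102138 to 151130311 of Sscrofa11.1) was at 10.6 CPM in the lowest, 30.1 in the median and 59.0 in the highest control. The mild piglets spanned 8.27 to 54.9 CPM, with a median of 26.0. The 9 severe piglets, replicates 1 to 9, were at 62.4, 46.0, 35.5, 43.8, 62.6, 54.2, 58.4, 98.4 and 48.9 CPM. The severe piglets overlapped the controls, but all 9 lay above the control median of their own batch and 3 lay above the highest control, whereas 5 of the 11 mild piglets lay above their batch's control median. The severe mean of 56.7 ± 18.1 CPM (SD, n = 9) compared with 33.2 ± 14.5 in controls (SD, n = 19), a log2 difference of 0.82 ± 0.22 by edgeR (FDR = 0.041). Within batches the difference was 1.10, 0.51 and 0.86 in batches 1, 2 and 3, and 1.12 in batch 1 without severe replicate 2.

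The CSF1R call was narrow. With each library left out in turn, CSF1R stayed called in 26 of 39 fits, and its difference ran from 0.72 to 0.90. Leaving out a severe library put the FDR at 0.11 (replicate 1), 0.10 (replicate 2), 0.053 (replicate 4), 0.070 (replicate 5), 0.056 (replicate 6) or 0.10 (replicate 8). Leaving out a control put it at 0.051 (replicate 1), 0.059 (replicate 2), 0.051 (replicate 6), 0.056 (replicate 8), 0.061 (replicate 11), 0.054 (replicate 12) or 0.055 (replicate 18). CSF1R also missed the threshold with batch 3 split by library series (0.82, FDR = 0.073), without the 4 controls of the series BKDL (0.80, FDR = 0.083), without batch 2 (0.99, FDR = 0.14) and with surrogate variables added as terms (0.64, FDR = 0.74).

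CSF2RB encodes the beta chain that, in humans, is shared by the receptors for GM-CSF, IL-3 and IL-5. It was at 44.3 to 189 CPM in controls (median 78.1) and at 26.1 to 171 in mild piglets (median 106). The severe piglets ran from 58.4 to 307 CPM, with a median of 143. The groups overlapped, and 8 of 9 severe piglets were above the control median of their batch. The severe difference of 0.79 ± 0.24 missed the threshold in edgeR (FDR = 0.062). Severe replicate 2 held the highest value; without it the difference was 0.58 (0.25 in place of 0.75 in batch 1), and without severe replicate 9, which held the lowest severe value, it was 0.92 with an FDR of 0.018. CSF3R is the receptor for the neutrophil growth factor G-CSF. It was at 75.9 to 312 CPM in controls (median 140) and 104 to 386 in severe piglets (median 178). The difference of 0.35 ± 0.28 did not pass. Without severe replicate 2 the CSF3R difference was 0.16, and 0.098 in place of 0.50 in batch 1. The ligand CSF1 was at medians of 3.52 CPM in controls, 2.64 in mild and 3.41 in severe piglets, with overlapping ranges. Its severe difference was 0.07 ± 0.39, and -0.11 without severe replicate 2.

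**Figure D2:**
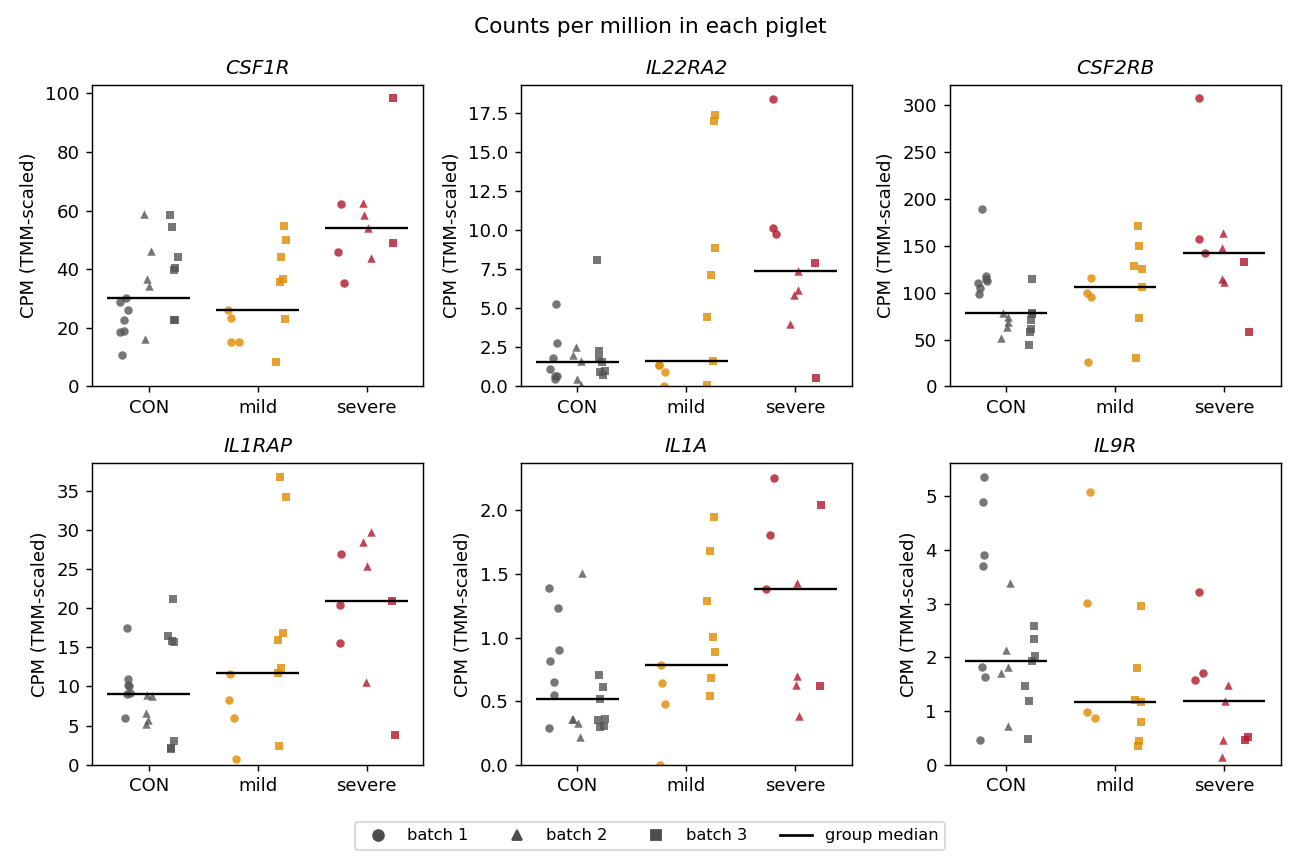
CPM of selected cytokine and receptor genes in every piglet, by group, with the batch marked; the line is the group median. Ranges of the 3 groups overlap for each gene, and CSF1R medians are 30.1, 26.0 and 54.2 CPM in CON, mild and severe piglets.

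The 6 tested receptors of the interferon and IL-10 families also all read above controls in the severe piglets, and 1 of them was called. IL22RA2 (chromosome 1, bases 27073481 to 27090635) was at 0.110 CPM in the lowest, 1.59 in the median and 8.06 in the highest control. In the severe piglets, replicates 1 to 9, it was at 10.1, 18.3, 9.74, 6.16, 7.35, 4.01, 5.82, 7.87 and 0.517 CPM. In all, 8 of the 9 severe piglets lay above their batch's control median and 3 above the highest control; severe replicate 9 was the exception, on 5 counts. IL22RA2 rose by 2.39 ± 0.57 on the log2 scale in the severe piglets (edgeR FDR = 0.024), a fold of 5.25 with a 95% interval of the log2 value from 1.28 to 3.51. The within-batch differences were 2.92, 2.09 and 0.92, and 2.50 in batch 1 without severe replicate 2.

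Library composition differed between severe and control piglets in batch 1. There the 3 severe libraries had TMM factors of 1.02 to 2.06 against 0.308 to 0.735 in the 7 controls, non-globin counts of 2.87 to 4.32 M against 1.5 to 2.35 M, and reads outside features at 1.49 to 3.35% against 0.429 to 1.21%, with no overlap in any of the 3 measures. The 4 mild libraries of batch 1 ran from 0.411 to 2.39, from 1.48 to 5.74 M and from 0.491 to 3.44%. Their highest values lay above those of the severe libraries, and all came from mild replicate 4. The median TMM factors of batch 1 were 0.616 in control, 0.58 in mild and 1.89 in severe libraries. Median non-globin counts were 2.1, 2.28 and 4.18 M in the same order, and reads outside features 0.773, 0.746 and 3.14%. In batch 2 the severe libraries lay within or across the control range, with TMM factors of 1.23 to 2.86 against 0.833 to 3.72, and in batch 3 at 0.399 to 0.907 against 0.496 to 4.09. The part of composition in the batch 1 differences, which were the largest of the 3 batches for IL22RA2 and CSF1R, was not tested.

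IL22RA2 stayed called in 37 of the 39 fits that left out 1 library. Without severe replicate 2, the library whose sex label is in doubt, its difference was 2.01 with an FDR of 0.11, and without severe replicate 1 it was 2.36 with an FDR of 0.057. IL22RA2 also missed the threshold without the 4 controls of the series BKDL (2.25, FDR = 0.059), without batch 2 (2.60, FDR = 0.17) and with surrogate variables, terms estimated from the expression values themselves, which left 0.39 (FDR = 0.97).

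The mild piglets spread widely for IL22RA2, from 0 to 17.4 CPM with a median of 1.66. The 4 mild piglets of batch 1 were at 0 to 1.37 CPM and the 7 of batch 3 at 0.0759 to 17.4, with a median of 7.14. Their fitted difference from the controls of their own batch was -0.81 in batch 1 and 1.81 in batch 3, and over both batches 1.02 ± 0.64, which did not pass in edgeR. The test of the difference between the batches gave an unadjusted p of 0.044 and an FDR of 0.76, so it did not pass either. IL22RA2 had the largest SD of log2 CPM of the tested genes among the mild piglets, at 2.54, against 1.25 in controls and 1.38 in severe piglets.

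The ligand and a signalling receptor chain that IL22RA2 relates to were barely counted. IL22, which encodes a cytokine acting on epithelial cells, had 2 counts in all, 1 in each of 2 mild libraries. IL22RA1, a signalling receptor chain for IL-22, had 6 counts, all of them in a single mild library.

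The type I interferon receptor chains IFNAR1 and IFNAR2 and the interferon-gamma receptor chains IFNGR1 and IFNGR2 all read above controls in severe piglets and none was called. IFNAR1 was at 6.65 to 31.0 CPM in controls (median 18.9) and at 5.48 to 57.9 in severe piglets (median 27.0), a difference of 0.64 ± 0.25 (edgeR FDR = 0.15). The within-batch differences of IFNAR1 were 1.21, 0.50 and -0.23, and without severe replicate 9 the batch 3 value was 0.51 in place of -0.23. Without severe replicate 2, which held the highest IFNAR1 and IFNGR2 values, the IFNAR1 difference was 0.39 (FDR = 0.50), and 0.75 in batch 1. IFNAR2 was at 8.96 to 23.2 CPM in controls and 17.2 to 36.0 in severe piglets, and 5 of the 9 severe piglets lay above the highest control. The IFNAR2 difference was 0.47 ± 0.19 (edgeR FDR = 0.16). IFNGR1 differed by 0.53 ± 0.25 and IFNGR2 by 0.45 ± 0.23. Without severe replicate 2 the differences were 0.33 for IFNAR2, 0.42 for IFNGR1 and 0.30 for IFNGR2. IL10RA, a chain of the receptor for the anti-inflammatory cytokine IL-10, had the lowest spread among controls of all tested cytokine and receptor genes, with an SD of 0.29 in log2 CPM. It differed by 0.14 ± 0.14.

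Several of these genes lie next to each other, and strand use in counting is not known. IFNAR2, IFNAR1 and IFNGR2 lie within 270 kb of chromosome 13, and IFNGR1 and IL22RA2 within 135 kb of chromosome 1 together with IL20RA, a receptor chain with 20 counts in all. The neighbours IFNGR1 and IL22RA2 differed by 0.53 and 2.39 in severe piglets.

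The IL-1 family receptors were led by IL1RAP, the accessory chain that IL-1 receptors need to signal, and by IL1R2, a decoy receptor that binds IL-1 without signalling. Among the 6 tested, 5 read above controls in the severe piglets, and none was called. IL1RAP was at 2.03 to 21.2 CPM in controls (median 9.04) and at 0.795 to 36.7 in mild piglets (median 11.8). In severe piglets it ran from 3.83 to 29.7 CPM (median 20.9), with 4 of 9 above the highest control. The severe difference was 1.15 ± 0.40 (edgeR FDR = 0.11), with within-batch values of 1.03, 1.72 and 0.08. Without severe replicate 2 it was 0.98, and 0.65 in batch 1.

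IL1R2 had the largest SD of log2 CPM among controls of all tested cytokine and receptor genes, 1.56, with control values from 0.609 to 53.8 CPM. Its severe values were 11.5 to 67.3 CPM (median 34.6, against 14.9 in controls), and all 9 severe piglets lay above the control median of their batch. The IL1R2 difference was 1.13 ± 0.56 (edgeR FDR = 0.27). IL1R1, the signalling receptor for IL-1, was low in every group, with medians of 0.363 CPM in controls, 0.257 in mild and 0.527 in severe piglets. In batch 2 the 4 severe piglets had 1.11 to 1.90 CPM of IL1R1 and the 5 controls 0.30 to 0.716, which did not overlap. In batch 1 the 3 severe piglets had 0.193 to 0.527 CPM and the 7 controls 0.163 to 0.670. In batch 3 the 2 severe piglets had 0 and 0.511 CPM and the 7 controls 0.152 to 1.13. The within-batch differences of IL1R1 were -0.24, 1.70 and -1.03. Whether the severe difference varied by batch gave IL1R1 an unadjusted p of 0.0060 and an edgeR FDR of 0.17, the smallest p of the 36 genes in that test. None of the 36 passed it, 4 had an unadjusted p under 0.05, and over all genes 0.103% were called and 16.1% had such a p.

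The 6 receptors IL18RAP, IL18R1, IL1RL1, IL1RL2, IL1R1 and IL1R2 lie in a 644 kb stretch of chromosome 3. IL18RAP, a chain of the IL-18 receptor, differed by 0.45 ± 0.34 in severe piglets, IL1RL1, the IL-33 receptor, by 0.44 ± 0.48, and IL18R1, the other IL-18 receptor chain, by -0.03 ± 0.57. In batch 3 the 2 severe piglets had 0 and 1 count of IL18R1, too few to give a fold.

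Receptors that use the common gamma chain, with IL13RA1 of the IL-13 receptor, went in both directions. Of the 8 tested, 3 read above and 5 below controls in the severe piglets, and none was called. IL9R, the receptor for the T helper and mast cell cytokine IL-9, was at 0.468 to 5.36 CPM in controls (median 1.93), 0.346 to 5.08 in mild and 0.137 to 3.22 in severe piglets. All 9 severe piglets and 9 of the 11 mild ones lay below the control median of their batch. The severe difference was -1.07 ± 0.38 (edgeR FDR = 0.11), and the within-batch values were -0.55, -1.26 and -1.83.

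IL13RA1 was at a median of 18.2 CPM in controls, 17.9 in mild and 30.7 in severe piglets, with a severe difference of 0.61 ± 0.25 (edgeR FDR = 0.17). IL4R, a chain shared by the IL-4 and IL-13 receptors, had medians of 42.0, 40.8 and 63.5 CPM and a severe difference of 0.41 ± 0.23, or 0.29 without severe replicate 2. IL2RA, the high-affinity IL-2 receptor chain carried by regulatory and activated T cells, differed by -0.42 ± 0.19 (edgeR FDR = 0.23). IL7R, a receptor of naive and memory T cells, differed by -0.46 ± 0.29. IL2RG, the common gamma chain itself, differed by -0.07 ± 0.15 in severe piglets.

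Of the 6 receptors of the IL-6 and IL-12 families, 2 read above and 4 below controls in the severe piglets. IL27RA, a chain of the IL-27 receptor, was at 5.48 to 12.1 CPM in controls (median 9.13) and 3.22 to 8.94 in severe piglets (median 7.38). All 9 severe piglets lay below their batch's control median, 4 of them below the lowest control. The IL27RA difference was -0.59 ± 0.22 (edgeR FDR = 0.14). IL6R and IL6ST, the IL-6 receptor chain and its signalling partner gp130, differed by 0.19 ± 0.19 and -0.05 ± 0.29. The single tested IL-17 receptor, IL17RA, differed by -0.12 ± 0.16.

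Among the ligands, IL1A, an IL-1 cytokine released by damaged and activated cells, had the smallest p in severe piglets. It was low: 0.217 to 1.51 CPM in controls (median 0.519), 0 to 1.95 in mild piglets (median 0.782) and 0.381 to 2.26 in severe piglets (median 1.38), on at most 73 counts in a library. All 9 severe piglets lay above the control median of their batch and 3 above the highest control. The difference of 0.99 ± 0.33 did not pass in edgeR (FDR = 0.090), and was 0.86 without severe replicate 2. IL10 had medians of 0.652, 0.576 and 0.988 CPM in CON, mild and severe piglets and a severe difference of 0.71 ± 0.43. IL18, a cytokine activated by inflammasomes, differed by 0.35 ± 0.34, IL16, a T cell chemoattractant, by 0.15 ± 0.15, and IL15, a growth factor of natural killer cells, by -0.10 ± 0.55.

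Markers of blood cell types were read in the same piglets, and whether they went with the receptor genes from piglet to piglet was not tested. Monocyte markers, 8 of 10 of which had a gene in the files, summed to 67.8 to 471 CPM in controls (median 196), 16.4 to 321 in mild piglets (median 175) and 194 to 477 in severe piglets (median 339). In severe piglets all 8 read above controls and 3 were called, VCAN, CD163 and FCN2. Neutrophil markers summed to medians of 273, 297 and 754 CPM, over 82.8 to 2554 in controls, 42.3 to 2345 in mild and 202 to 2581 in severe piglets, with 8 of 9 above controls and SLPI called. B cell markers summed to 40.8 to 111 CPM in controls, 49.5 to 210 in mild and 22.5 to 71.9 in severe piglets, with 10 of 10 below controls in severe piglets and 5 called. T cell markers summed to 148 to 312 CPM in controls, 82.1 to 301 in mild and 68.2 to 240 in severe piglets, with 10 of 10 below controls and LCK called. Over all tested genes 2.09% were called in severe against CON. Lists of other blood cells are given with the processing. No marker gene with a row of counts was at 0 in every library. The part of these shifts in the receptor differences was not tested.

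The genes downstream of these receptors were read from lists. Of 27 tested JAK and STAT pathway genes, 20 read above controls in severe piglets with a median of 0.17, and of 20 IL-1 and IL-18 signalling genes 16 did, with a median of 0.12. None of either list was called by edgeR, 8 and 6 had an unadjusted p under 0.05, and these shares stand against 18.6% of all genes. JAK2, the kinase used by many colony factor receptors, differed by 0.64 ± 0.20 (FDR = 0.065), STAT3, the factor activated by IL-6 and IL-10 receptors, by 0.49 ± 0.16 (FDR = 0.085), and NFKBIZ, an NF-kappaB cofactor induced by IL-1, by 0.65 ± 0.19 (FDR = 0.060). STAT5A, activated by IL-2 family and colony factor receptors, differed by -0.37 ± 0.13 (FDR = 0.10) and STAT4, activated by the IL-12 receptor, by -0.67 ± 0.24 (FDR = 0.12). Of 7 other cytokine and cytokine receptor genes 4 read above controls, with a median of 0.07, and of 9 myeloid transcription factors 7 did, with a median of 0.21; none was called, and 1 and 2 had an unadjusted p under 0.05. In mild against CON none of these 4 lists held a called gene either, with 15 of 27, 10 of 20, 3 of 7 and 2 of 9 genes above controls.

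**Figure D3:**
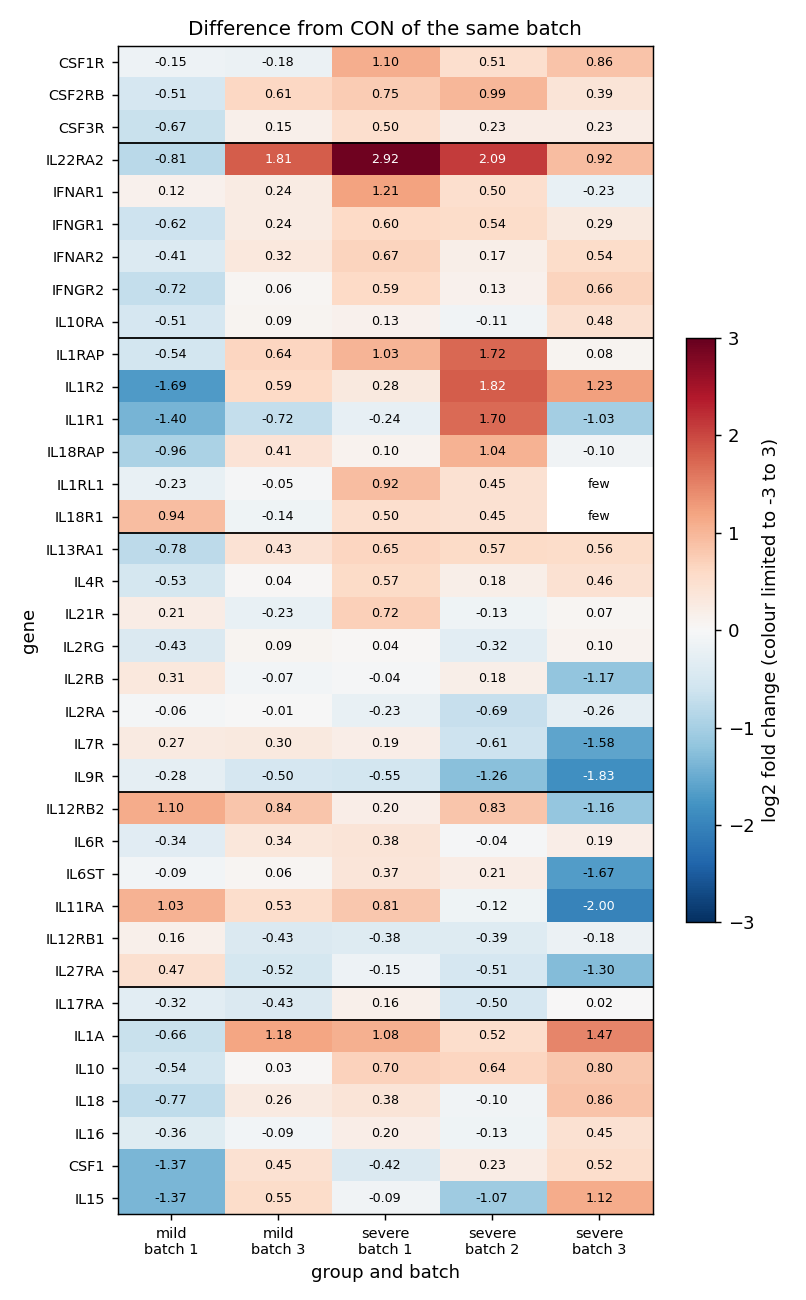
Fitted log2 differences from the controls of the same batch for the tested cytokine and receptor genes, by batch and severity; batch 2 held no mild piglet, and "few" marks a fit on 3 counts or fewer in a group. The median over the 36 genes was 0.38, 0.20 and 0.15 in severe piglets of batches 1, 2 and 3, and -0.42 and 0.12 in mild piglets of batches 1 and 3.

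Within batches the tested cytokine and receptor genes kept a median above 0 in severe piglets, 0.38 in batch 1 with 28 of 36 above 0, 0.20 in batch 2 with 22 and 0.15 in batch 3 with 22. The medians over all genes in these fits are not given here, so these medians have no background beside them. Without severe replicate 2 the batch 1 median was 0.25 with 26 above 0, and without severe replicate 9 the batch 3 median was 0.34 with 21 above 0. None of the 36 was called within a batch by edgeR, where 0.149%, 0.00932% and 2.52% of all genes were. At an unadjusted p under 0.05 there were 6, 8 and 8 of the 36, against 12.9%, 11.5% and 20.3% of all genes. Batch 3 held only 2 severe piglets, and severe replicate 9 was the lower of them for IL22RA2, CSF1R, CSF2RB, IL1A and IL1RAP. Without it the batch 3 difference was 1.91 in place of 0.92 for IL22RA2, 1.29 in place of 0.86 for CSF1R, 0.89 in place of 0.39 for CSF2RB and 0.85 in place of 0.08 for IL1RAP, a comparison chosen after seeing the data.

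The mild piglets were set against the same 19 controls, so both sets of differences share them. None of the 36 genes was called, nor was any of the 10731 genes (0%) by edgeR, and DESeq2 and limma voom also called 0 of the 36. At an unadjusted p under 0.05 there were 2 of the 36 against 7.84% of all genes. The difference was above 0 for 12 of the 36 genes, with a median of -0.09. IL17RA, the main receptor chain for IL-17A, had the smallest p: 20.5 to 41.6 CPM in mild piglets (median 26.8) against 21.9 to 57.4 in controls (median 32.6), with 10 of 11 mild piglets below the control median of their batch. The difference was -0.44 ± 0.16 (edgeR unadjusted p = 0.0082, FDR = 0.56), with within-batch values of -0.32 and -0.43.

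IL12RB2, a chain of the IL-12 receptor on T helper 1 and natural killer cells, was at 0.159 to 2.92 CPM in mild piglets (median 0.665) against 0.163 to 1.71 in controls (median 0.390), a difference of 1.07 ± 0.41 (edgeR FDR = 0.56). IL11RA, the receptor for IL-11, was at medians of 0.864 and 0.448 CPM and above the control median of its batch in 10 of 11 mild piglets, a difference of 0.71 ± 0.36 (edgeR FDR = 0.63). IL1R1 differed by -0.68 ± 0.39, IFNGR2 by -0.32 ± 0.24, IL16 by -0.25 ± 0.15 and IL10RA by -0.21 ± 0.14, and none of these passed.

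The mild piglets of the different batches differed in where they stood against their controls. In batch 1 the median over the 36 genes was -0.42 with 9 above 0, and in batch 3 it was 0.12 with 24 above 0; the median over all genes was 0.0032 and 0.0068. Within batches 1 and 3 edgeR called none of the 36, against 0% and 0.0373% of all genes, and 4 of the 36 in each had an unadjusted p under 0.05, against 5.7% and 7.97%. Without mild replicate 1, left out after seeing the data, the batch 1 median was -0.22 with 10 above 0. The test of whether the mild difference varied between batches called none of the 36 and none of all genes in edgeR. At an unadjusted p under 0.05 it had 8 of the 36, against 6.33% of all genes, with the smallest p for IL1A (difference of differences 1.84 ± 0.71), IL27RA (-0.99 ± 0.41), CSF2RB (1.12 ± 0.47) and IL13RA1 (1.21 ± 0.51), each at an FDR of 0.75. Monocyte marker sums were at a median of 116 CPM in mild and 189 in control piglets of batch 1, and at 273 and 217 CPM in batch 3. Neutrophil marker sums were at 282 and 367 CPM in batch 1 and at 297 and 219 CPM in batch 3. Their part in the batch difference was not tested.

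Severe and mild piglets were compared directly. None of the 36 genes was called by edgeR, where 0.112% of all genes were, and 9 had an unadjusted p under 0.05 against 12.6% of all genes. The difference was above 0 for 26 of the 36, with a median of 0.42 against -0.043 over all genes. Without severe replicate 2 the median over the 36 was 0.33, again with 26 above 0. CSF1R had the smallest p, with a severe minus mild difference of 1.03 ± 0.26 (edgeR FDR = 0.086), and 1.26 in batch 1 and 1.03 in batch 3. Without severe replicate 2 the CSF1R difference was 1.00 (edgeR FDR = 0.15). DESeq2 called 1 of the 36, CSF1R, against 0.951% of all genes, and limma voom 6 against 7.82%. Within batches 1 and 3 edgeR called none of the 36, against 0.214% and 1.44% of all genes, and 14 and 6 had an unadjusted p under 0.05, against 12.7% and 19%. IFNGR2 differed by 0.77 ± 0.28 (FDR = 0.27), IL1R1 by 1.23 ± 0.49 (FDR = 0.30), IL13RA1 by 0.68 ± 0.31 (FDR = 0.36) and IL4R by 0.64 ± 0.28 (FDR = 0.35). IFNAR2 differed by 0.48 ± 0.23 (FDR = 0.38), IL16 by 0.40 ± 0.18 (FDR = 0.36) and IL7R by -0.76 ± 0.35 (FDR = 0.37). Without severe replicate 2 the differences were 0.63 for IFNGR2, 1.25 for IL1R1, 0.58 for IL13RA1 and 0.52 for IL4R. In that fit IFNAR2 differed by 0.35, IL16 by 0.33 and IL7R by -0.89. Batch 2 held no mild piglet, and the differences within batches 1 and 3 were unequal for several of these genes. IL1R1 turned its sign, at 1.16 and -0.31, and its value over all batches lay above both. The fit over all batches also took in batch 2, where severe piglets differed from controls by 1.70 for IL1R1. The values in batches 1 and 3 were 1.31 and 0.60 for IFNGR2, 1.43 and 0.13 for IL13RA1, 1.10 and 0.43 for IL4R, 1.08 and 0.22 for IFNAR2, 0.57 and 0.54 for IL16, and -0.07 and -1.89 for IL7R. All 6 tested ligands and all 6 interferon and IL-10 family receptors lay above 0.

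All 20 NEC piglets, mild and severe, were last set against controls. None of the 36 genes, and 0% of all genes, was called by edgeR, and 7 had an unadjusted p under 0.05 against 14.4% of all genes. DESeq2 called 1 of the 36, IL22RA2, and 0.335% of all genes, and limma voom called 0 of the 36. The difference was above 0 for 23 of the 36 genes, with a median of 0.11, and for 19 with a median of 0.016 without severe replicate 2. IL22RA2 differed by 1.83 ± 0.49 (edgeR FDR = 0.15), and by 1.51 without severe replicate 2 (edgeR FDR = 0.29). CSF2RB differed by 0.52 ± 0.20 (FDR = 0.23), IL1A by 0.74 ± 0.29 (FDR = 0.24), IL1RAP by 0.74 ± 0.32 (FDR = 0.29) and IFNAR1 by 0.43 ± 0.20 (FDR = 0.32). IL9R differed by -0.72 ± 0.30 (FDR = 0.26), IL17RA by -0.28 ± 0.13 (FDR = 0.32) and IL12RB2 by 0.69 ± 0.35 (FDR = 0.35). Without severe replicate 2 the differences were 0.38 for CSF2RB, 0.63 for IL1A, 0.60 for IL1RAP and 0.29 for IFNAR1. In that fit IL9R differed by -0.70, IL17RA by -0.31 and IL12RB2 by 0.67.

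The control piglets alone showed how far these genes varied without disease. The 19 controls fall into 4 sets by labelled batch and library name, called library series here: batch 1 (7), batch 2 (5) and, in batch 3, FKDL (3) and BKDL (4). Batch 2 libraries carry the name FKDL too, so batch and library name are compared together. Below, FKDL means the batch 3 controls of that name. Across these series 1 of the 36 genes was called by edgeR against 1.92% of all genes, and 7 had an unadjusted p under 0.05 against 15.2%. That gene was IL2RB, the beta chain of the IL-2 and IL-15 receptors, at 7.97 to 11.8 CPM in batch 1, 17.9 to 28.1 in batch 2, 13.3 to 20.1 in FKDL and 10.8 to 24.2 in BKDL (FDR = 0.044). Batch 1 and batch 2 controls did not overlap, and batch 2 stood 1.07 higher on the log2 scale. IL6R had medians of 70.9, 32.0, 33.5 and 35.5 CPM in the same order (FDR = 0.073), CSF2RB 112, 69.2, 61.4 and 74.2 CPM (FDR = 0.11) and IL18 22.7, 4.86, 13.5 and 7.43 CPM (FDR = 0.15). Batch was a term in each comparison of severity.

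**Figure D4:**
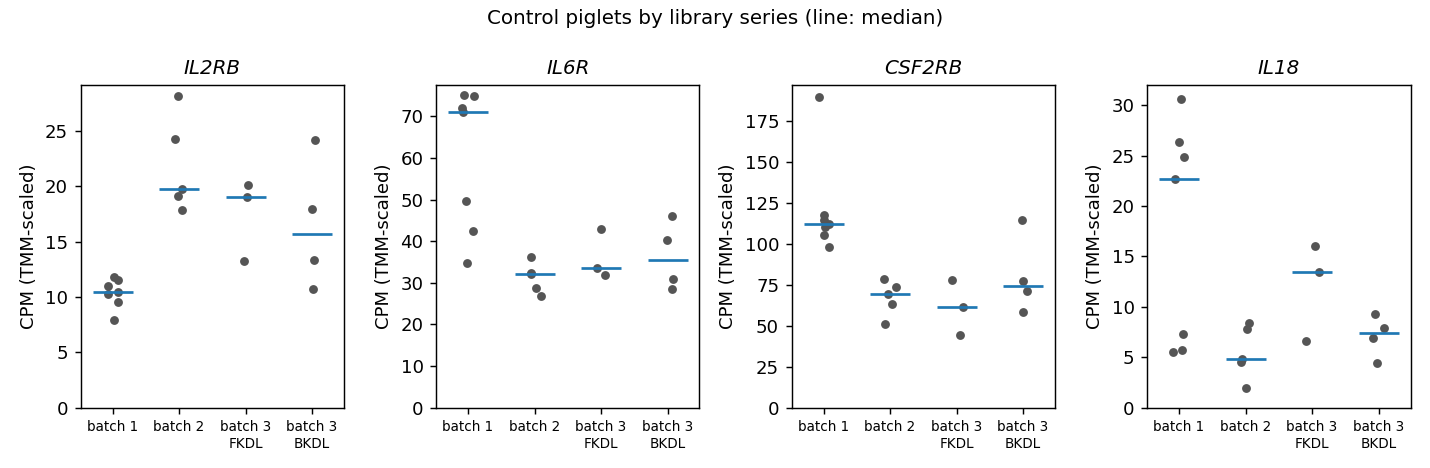
CPM of IL2RB, IL6R, CSF2RB and IL18 in the 19 control piglets, by library series, with the median as a line. IL2RB has its lowest median in batch 1, where values run from 7.97 to 11.8 CPM, and there IL6R and CSF2RB have their highest medians, 70.9 and 112 CPM.

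The tested cytokine and receptor genes varied more between piglets of a group than the tested genes at large. The median SD of log2 CPM was 0.67 in controls, 0.89 in mild and 0.81 in severe piglets, against 0.57, 0.57 and 0.60 over all tested genes. No test was made of that difference.

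The other 35 genes were counted too rarely to test: 23 ligands, 11 receptors and the enzyme gene IL4I1. Of these, 4 had 0 counts in every library (IL19, IL20, IL1RAPL1 and IL1RAPL2), which at 3 counts over the 745975409 counts of all libraries allows up to 0.00402 CPM; 13 had 1 to 10 counts in all and 18 more than 10. Limits of this kind cover counting error only.

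Several ligand genes known from inflammation and T helper responses were counted rarely. IL6, the classical fever and acute-phase cytokine, had 9 counts in 6 libraries, 3 CON, 1 mild and 2 severe. IL17A, the signature cytokine of T helper 17 cells, had 3 counts in 2 libraries. The T helper 2 cytokine genes IL4, IL5 and IL13, neighbours on chromosome 2, had 3, 53 and 2 counts.

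IL12B, the chain shared by IL-12 and IL-23, had 42 counts in 14 libraries and IL23A, the chain particular to IL-23, had 11 counts in 2 mild and 2 severe libraries and 0 in controls. IL2, the T cell growth factor, had 22 counts in 10 libraries. IL24, an IL-10 family cytokine, was counted in 13 of 19 CON, 2 of 11 mild and 5 of 9 severe libraries, on 76 counts in all. IL7, a lymphocyte survival factor made by stromal cells, had 158 counts in 31 libraries, and IL4I1, an amino acid oxidase of myeloid cells, 333 counts in 38. These are detections at unequal depth, and no test was made of them.

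**Figure D5:**
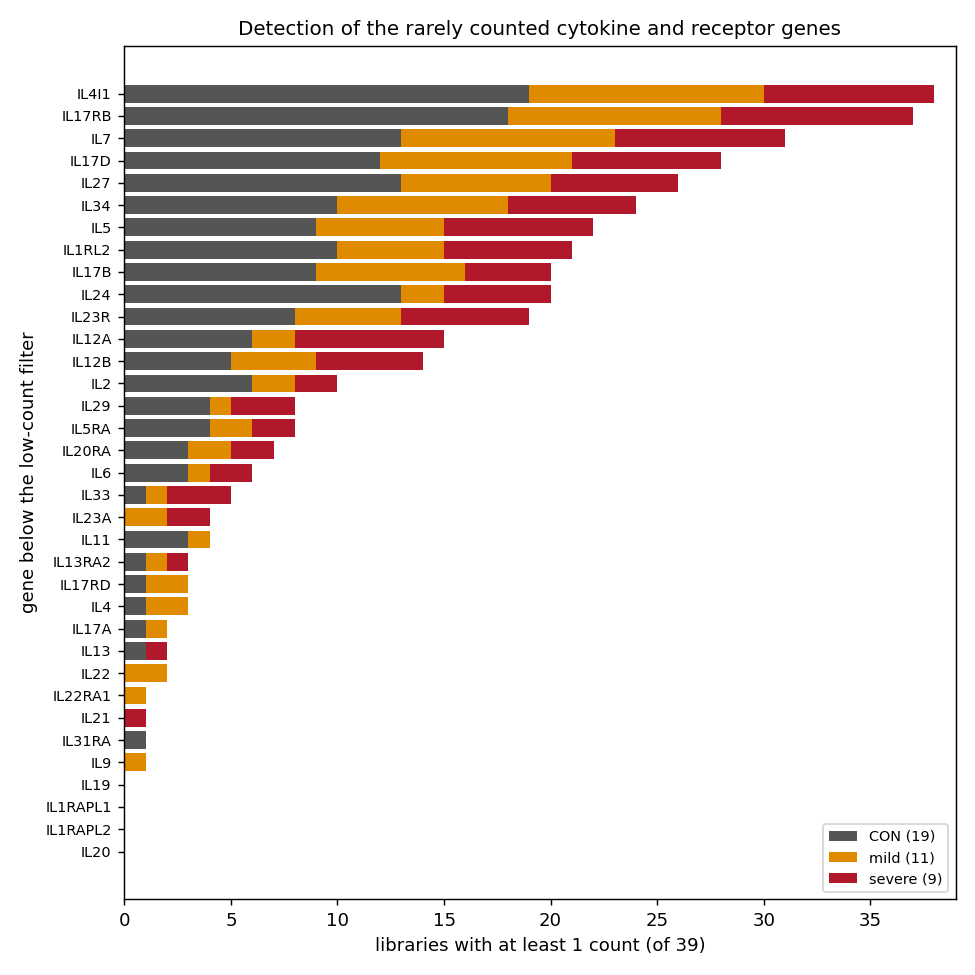
Number of libraries, of 39, with at least 1 count for each of the 35 cytokine and receptor genes below the low-count filter, stacked by group. The bars run from 38 libraries for IL4I1 to 0 for IL19, IL20, IL1RAPL1 and IL1RAPL2.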

How the data were processed

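The authors deposited unnormalized read counts for each Ensembl gene, with a file for every piglet. The submitters' processing notes, per the labels, name TopHat and HTSeq beside Trim Galore, DESeq2 and the build Sscrofa11.1; tool versions, the annotation release and the use of strand are not stated there. The 5 closing lines that name no gene stayed out of library sizes and tests; reads aligned to several places, 1 of these lines, ran from 16.4 to 51.9% of all counts of a library. Symbols came from a table of Ensembl IDs and positions from RefSeq's table for Sscrofa11.1, which placed all 71 genes.

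The tests were edgeR 4.0.16 quasi-likelihood F tests in R 4.3.3 with TMM scaling, robust dispersions and Benjamini-Hochberg adjustment over 10731 genes kept by filterByExpr with a minimum count of 10. Fits held NEC or severity with batch and sex as terms, severity-by-batch groups with sex, or library series with sex in controls only. The standard error is the absolute log2 change over the root of its F value. Each library was 1 piglet, libraries of a group differed by a chi-square per degree of freedom of at least 7.97, and each piglet counted as 1 replicate. The fits recovered known changes in simulated data that had no batch or sex effect, so recovery under such effects was not tested. Those data were drawn from the kind of model that edgeR fits. The 8 cytokine and receptor genes of smallest p were named in each comparison, 19 genes in all; other genes were named by their role, after their values were seen.

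Alternatives were DESeq2 1.42.0 as a test, its size factors in edgeR, limma 3.58.1 voom with weighted samples, no low-count filter or a stricter one (20 or more libraries at 1 CPM or above), the sex term dropped, batch 3 split by library series, surrogate variables from sva 3.50.0, globin genes removed, and libraries or batches left out. The genes, the lists and the rule were chosen with earlier results of these data known. Results of the lists of other blood cells are: in severe against CON, 6 of 8 natural killer and cytotoxic, 2 of 5 eosinophil, basophil and mast cell, 0 of 4 platelet, 1 of 7 erythroid and 2 of 4 dendritic cell markers read above controls, and 1 of them all was called, MS4A2 as higher.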

Additional observations from a re-analysis of the deposited data

Results flagged for a closer look

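Among the 9 severe piglets, 3 of 19 named genes had 1 library that stood far from the others by the gap to its neighbour as a share of the range (Dixon's test on CPM). For normally spread values chance gives this in about 1 of 20 groups, but CPM values are skewed, so the number of such genes is not read as an excess over chance. CSF1R was at 98.4 CPM in severe replicate 8, where the next value was 62.6 and the median 54.2. CSF2RB was at 307.4 CPM in severe replicate 2, the library whose sex label is in doubt, where the next value was 164 and the median 143. IL12RB2 was at 3.58 CPM in severe replicate 6, where the next value was 0.728 and the median 0.424. On log2 CPM, tried after seeing the data, the shares for CSF1R (0.443) and CSF2RB (0.387) were under the critical share, IL12RB2 was just over it (0.503), and IFNAR1 (0.51) and IL22RA2 (0.561) were over it as well.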

How the results depend on the processing

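In severe against CON, edgeR called 2 of the 36 genes (2.09% of all genes), DESeq2 5 (5.29%) and limma voom 13 (15.9%). With batch 3 split by library series edgeR called 1 (0.876% of all genes). It called 0 with surrogate variables added (0%), without the 4 BKDL controls (0.661%) and without batch 2 (0.113%). Leaving out 1 library gave 0 to 6: 0 without severe replicate 1 or 2, and 6 without severe replicate 9 (CSF1R, CSF2RB, IFNAR1, IL1A, IL1RAP and IL22RA2). The share of all genes called in fits that left out 1 library is not given here, so these counts have no background beside them. In severe against mild, where edgeR called 0, DESeq2 called 1 (CSF1R, 0.951% of all genes) and voom 6 (7.82%), and leaving out 1 library gave 0 to 1, the 1 being CSF1R without CON replicate 10 or severe replicate 9. In NEC against CON, DESeq2 called 1 (0.335% of all genes). Among controls, 3 genes differed between library series without the sex term (CSF2RB, IL2RB and IL6R), where the share of all genes called is not given here. The counts for mild against CON and for variation between batches were 0 under each alternative run. With surrogate variables, 6 differences turned sign: IL22RA2 in mild against CON (-0.020), IL1RAP (-0.20) and IFNAR1 (-0.0091) in severe against CON, and IL4R (-0.12), IL16 (-0.059) and IFNAR2 (-0.046) in severe against mild. The cause was not tested. Of 408 values of named genes under alternatives, 374 kept their direction and side of the threshold, 9 lost and 19 gained a call, and 6 turned sign. Only 2 of the 32 gene and comparison pairs behind these values were called in the main fits, IL22RA2 and CSF1R in severe against CON. Only they could lose a call, so all 9 losses were theirs and the 374 is no measure of how stable the calls were. No paired analysis was made, because each library came from a different piglet and the labels used here give no pairing of piglets. Genes with few counts, the ligands first, are limited by depth: 35 of 71 could not be tested.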
